A study of Arabidopsis thaliana with 2 samples.

Results

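CHR5, PKL, PKR1 and PKR2 are the CHD-type chromatin remodeller genes of Arabidopsis thaliana. They were taken as a named list of 4 genes out of 27444 protein-coding genes on the 5 nuclear chromosomes, by family membership and not by a threshold on their counts, though with earlier results of these data known. Together they overlap 7 of the 11916 nuclear bins of 10 kb in which the data were deposited, and each was described with 10 bins (100 kb) on either side. The samples were 1 library of wild-type leaves and 1 library of leaves of the chr5 mutant. Both came from plants grown on plates at 22 °C with no treatment. The labels give no allele, accession or plant age. In this assay, MNase-seq, micrococcal nuclease digests the exposed DNA between nucleosomes, and the protected DNA is sequenced.

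CHD remodellers use ATP to move and space nucleosomes, and they carry paired chromodomains next to a SNF2-type ATPase. CHR5 belongs to the CHD1 type, and it promotes expression of the seed regulators ABI3 and FUS3 and of the immune receptor gene SNC1. PKL (PICKLE), PKR1 and PKR2 are of the Mi-2 or CHD3 type. PKL is known for keeping embryonic genes silent after germination and for its link to H3K27me3, the histone mark made by Polycomb repressive complex 2.

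The deposited counts summed to 99909809 for the wild-type library and 102961878 for the mutant library. Each library was scaled to its total over the 5 nuclear chromosomes (99392770 and 102412872), and levels are given as counts per 1000000 nuclear counts (CPM) in a 10-kb bin. A level is therefore that of a whole bin, which spans many nucleosomes and usually more than 1 gene. Folds are the mutant level over the wild-type level, with exact intervals at 95% that cover counting error only. Each genotype has 1 library, so differences have no replicate check and no test was possible. Across 11735 analysed bins the log2 ratio had a median of 0.015 and an SD of 0.064, where counting alone gives 0.024. The counting intervals are thus narrower than the observed spread between bins. Of all analysed bins, 24.6% had an interval wholly above 1 and 16.2% one wholly below 1.

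Protected DNA over the mutated gene itself differed little between the libraries. The bins of CHR5 (AT2G13370) are on chromosome 2 at 5540001 to 5550000, which holds 47.5% of the gene, and at 5550001 to 5560000, which holds 52.5%. The first bin held 8023 wild-type counts against 7947 in the mutant library, or levels of 80.7 and 77.6 CPM. The second had 7503 and 7689 counts, or 75.5 and 75.1 CPM. The folds were 0.961 (0.932 to 0.992) in the first bin and 0.995 (0.963 to 1.03) in the second, so the lower value of the whole gene came mainly from the first. Of the first bin, 14.8% lies in AGT (AT2G13360), an aminotransferase gene of photorespiration, and 59.5% in CHR5. In the second, CHR5 takes 65.6% and the lncRNA gene AT2G05885 takes 3.95%. Bins of this size do not check the mutation named in the label.

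PKL (AT2G25170), on another part of chromosome 2, had the lowest fold of the 4 genes. Its bins are at 10710001 to 10720000, with 60.1% of the gene, and at 10720001 to 10730000, with 39.9%. The first held 8027 wild-type counts against 8181 in the mutant library, levels of 80.8 and 79.9 CPM, and a fold of 0.989 (0.959 to 1.02). The second had 8993 and 8842 counts, levels of 90.5 and 86.3 CPM, and a fold of 0.954 (0.927 to 0.983). In this second bin 29.7% of the length is RR12 (AT2G25180), a type-B response regulator gene of cytokinin signalling, against 41.1% for PKL. A single bin does not separate PKL from RR12, so the lower mutant level there cannot be assigned to either gene. The first bin also reaches CYP82F1 (AT2G25160, a cytochrome P450 gene) and AT2G25169, and it contains the microRNA gene MIR862 (AT2G25171). The lncRNA gene AT2G08120 covers 5.22% of the second.

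The bins of PKR1 (AT5G44800, listed as CHR4 in the gene table) were the most unequal of the 4 genes. They are on chromosome 5 at 18080001 to 18090000, with 63.2% of the gene, and at 18090001 to 18100000, with 36.8%. The first held 10642 wild-type counts against 10949 in the mutant library, levels of 107.1 and 106.9 CPM. The second had 5313 and 5943 counts, levels of 53.5 and 58.0 CPM. The fold was 0.999 (0.972 to 1.03) in the bin with most of the gene and 1.086 (1.046 to 1.127) in the other. The latter had the highest log2 ratio of the 7 gene bins, 0.12, and 98.1% of analysed bins were below it. It is also the bin with the lowest count of the 7, and 19.98% of it lies in AT5G44820 against 39.1% in PKR1. RAN1 (AT5G44790), a copper transporter gene needed for ethylene receptors, takes 1.60% of the first bin.

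PKR2 (AT4G31900) is the only one of the 4 that lies in a single bin, on chromosome 4 at 15430001 to 15440000. This bin held 6954 wild-type counts against 7614 in the mutant library, levels of 70.0 and 74.3 CPM. The fold of 1.063 (1.028 to 1.098) was the highest of the 4 genes, and the log2 ratio of 0.088 was above that of 93.7% of analysed bins. PKR2 covers 73.3% of the bin, and the only other annotated gene in it is a tRNA gene, AT4G31895.

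**Figure D1:**
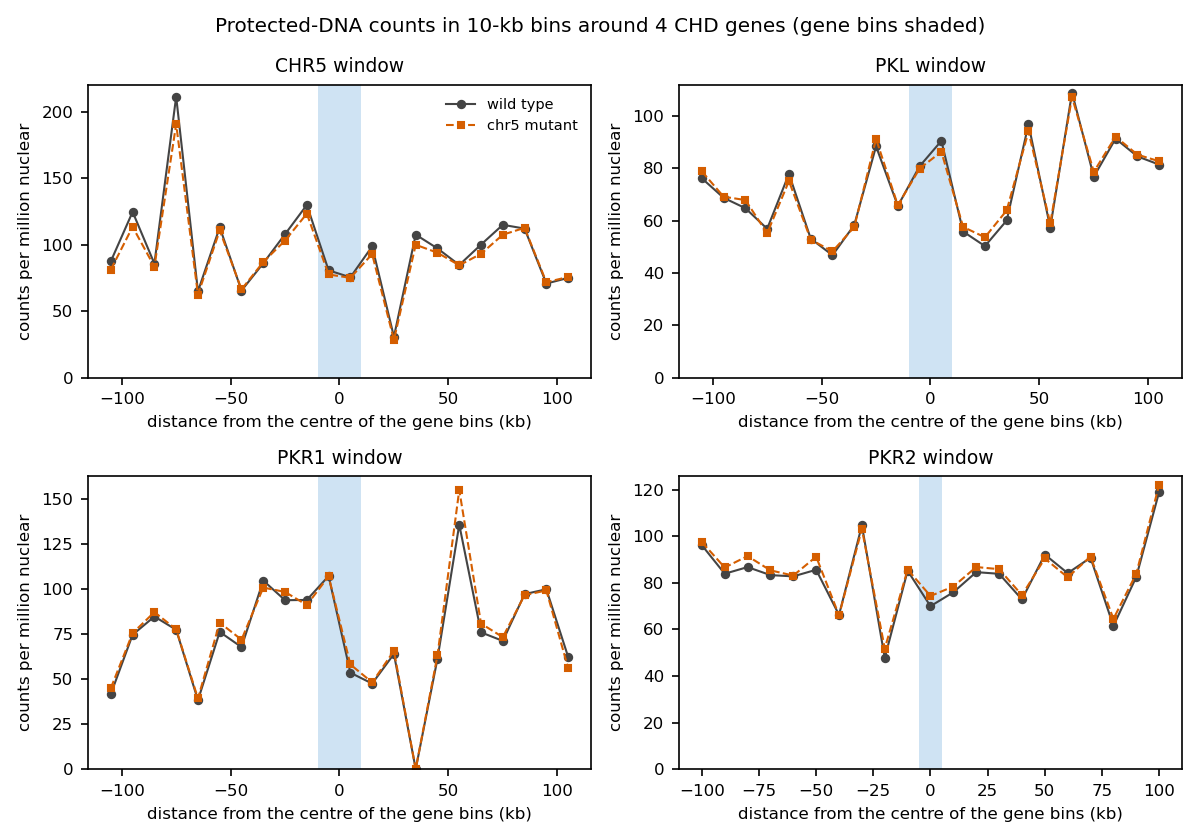
Counts per 1000000 nuclear counts (vertical axis, linear from 0) in each 10-kb bin against distance in kb from the centre of the gene bins, for the wild type (grey circles) and the chr5 mutant (orange squares), with the bins of each gene shaded. Both libraries trace the same profile in each window, and the bin 35 kb from the centre of the PKR1 bins holds 0 counts in both.

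Summed over its bins, CHR5 had a fold of 0.977, PKL of 0.971, PKR1 of 1.028 and PKR2 of 1.063. On the log2 scale these ratios were -0.033 (-0.065 to -0.00087), -0.043 (-0.074 to -0.012), 0.039 (0.0078 to 0.070) and 0.088 (0.041 to 0.13), in the same order. The interval was wholly below 0 for 2 genes and wholly above 0 for 2, where 8.21% and 28.5% of all analysed protein-coding genes had such an interval. For the 3 genes with more than 1 bin this depended on the bins used. With the bin of the gene midpoint alone, the interval included 0 for CHR5 (-0.054 to 0.038), PKL (-0.060 to 0.029) and PKR1 (-0.041 to 0.036). With the median bin set to a log2 ratio of 0, that of PKR1 also included it (-0.0069 to 0.056), while that of PKR2 stayed above 0 (0.026 to 0.12). Under this scaling those of CHR5 (-0.080 to -0.016) and PKL (-0.088 to -0.027) stayed below 0. PKR2 lies in 1 bin, so the midpoint setting used the same counts and could not move it. None of the 7 gene bins passed a 1.1-fold change, where 0.81% of analysed bins were higher and 2.65% were lower. Past a change of 5%, taken as the same fold either way, 2 gene bins were higher and 0 were lower, against 12.1% and 9.29% of all analysed bins. Of the 7 gene bins, 2 had an interval wholly below 1, 2 had one wholly above 1 and 3 had one that included 1. Among all analysed bins, 16.2% had one wholly below 1 and 24.6% one wholly above 1. Among all analysed protein-coding genes, 10.1% had a lower log2 ratio than CHR5, 7.08% a lower one than PKL, 68.7% than PKR1 and 95.02% than PKR2.

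Over all of their bins, CHR5 and PKL were on the lower side of the genes, and PKR1 and PKR2 on the upper side. With the midpoint bin alone PKR1 moved to the lower side, with 28.5% of genes below it, beside 24.0% for CHR5 and 18.5% for PKL. Between CHR5 and PKL the log2 ratios differed by 0.0099, with a counting interval of -0.034 to 0.054. PKR1 and PKR2 differed by -0.048 (-0.10 to 0.0079). Each of the other pairs had a counting interval that left out 0, from CHR5 against PKR1 at -0.072 (-0.12 to -0.027) to PKL against PKR2 at -0.13 (-0.19 to -0.075). All 6 pairs were compared, and these intervals hold no spread between preparations. With the midpoint bin alone, CHR5 and PKR1 differed by -0.0057 (-0.066 to 0.054) and PKL and PKR1 by -0.014 (-0.072 to 0.045), while each of the other 3 genes was below PKR2 by an interval that left out 0.

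The order of the mean levels per bin was the same in both libraries. In the wild type it ran from PKL at 85.6 CPM (84.3 to 86.9) over PKR1 at 80.3 (79.0 to 81.5) and CHR5 at 78.1 (76.9 to 79.3) to PKR2 at 70.0 (68.3 to 71.6). In the mutant PKL was at 83.1 (81.9 to 84.4), PKR1 at 82.5 (81.2 to 83.7), CHR5 at 76.3 (75.1 to 77.5) and PKR2 at 74.3 (72.7 to 76.0). The intervals of PKR1 and CHR5 overlapped in the wild type, and those of PKL and PKR1 and of CHR5 and PKR2 overlapped in the mutant. The range over the 4 genes, from 70.0 to 85.6, was smaller than the range between both bins of PKR1 alone. For comparison, the median analysed bin was at 80.3 CPM in the wild type against 81.0 in the mutant.

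The 4 genes lie in different surroundings. CHR5 is 1.95 Mb from the approximate centromere position of chromosome 2, just inside the 2 Mb taken as pericentromeric. Its flanking bins from 5600001 on are outside that limit. The median flanking bin in its window had 2.15% of its length in protein-coding genes. The bins of CHR5 had 74.3% and 65.6%. The flanking medians were 61.4% for PKL, 63.4% for PKR1 and 72.4% for PKR2, all of which are on chromosome arms. Within the wild-type library, the CHR5 bins were at 0.797 times the median level of their flanks, and in the mutant at 0.820 times. Against the 3 flanking bins with at least 50% coding coverage this turned to 1.04 and 1.01 times, a comparison chosen after seeing the data. PKL was above its flanks, at 1.28 times in the wild type against 1.21 times in the mutant, and PKR2 was below, at 0.833 and 0.867 times. PKR1 was at 1.06 times in both. In each of these 3 windows wild-type level and coding coverage were positively related across bins (Spearman's rho of 0.69, 0.50 and 0.50), while in the CHR5 window rho was -0.19. These are descriptions over 21 or 22 neighbouring bins of 1 library, which are not independent.

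Set against its own neighbours, the log2 ratio of CHR5 was not low. The 20 flanking bins had a median log2 ratio of -0.061 with an SD of 0.055, and 15 of them were below 0. The mean log2 ratio of the CHR5 bins was 0.028 above that median, and 13 of the 20 flanking bins were lower than CHR5. The 9 flanking bins with no protein-coding gene ranged from -0.15 to -0.031, with a median of -0.087. The 3 flanking bins with at least 50% coding coverage had a median of 0.013, and against these CHR5 was lower, by -0.046. The sign of its local difference therefore depended on which neighbours were used, again with neighbours chosen after seeing the data. Over chromosome 2 as a whole, pericentromeric bins with at least 50% coding coverage had a median log2 ratio of 0.0051 (SD 0.051 over 33 bins), against -0.060 for the 354 with less. On the arms of chromosome 2 the direction was reversed. There the median was 0.0096 for the 1027 bins with at least 50% coding coverage, against 0.023 for the 543 with less. CHR5 is close to the limit set between both regions.

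**Figure D2:**
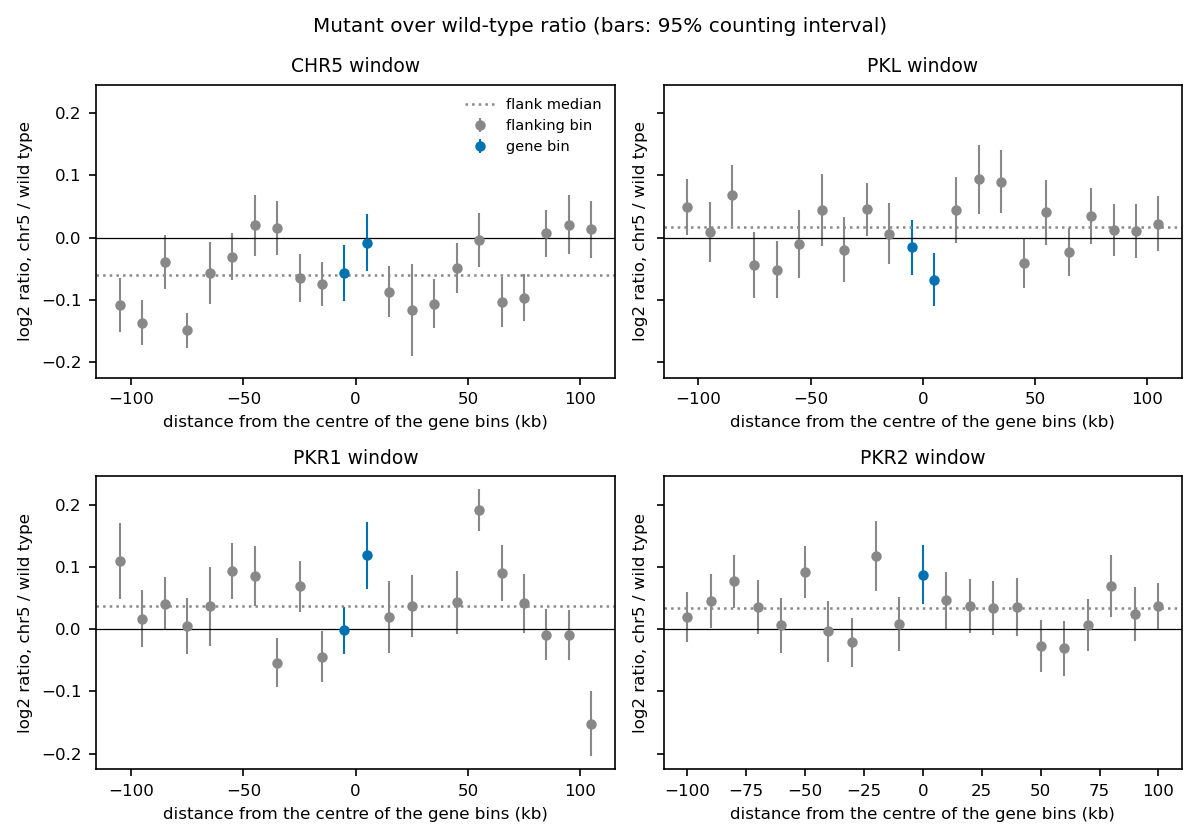
Log2 ratio of chr5 mutant to wild type (vertical axis) in each analysed bin against distance in kb from the centre of the gene bins, with gene bins in blue, flanking bins in grey, bars for the 95% counting interval and a dotted line at the flank median. The flank median lies below 0 in the CHR5 window (-0.061) and above 0 in the other windows (0.017 to 0.037).

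PKL stood lower within its window than CHR5 did. Its flanking bins had a median log2 ratio of 0.017 (SD 0.042 over 20 bins), and the PKL bins were on average 0.059 below it. Only 2 of the 20 flanking bins had a lower ratio than the mean of the PKL bins. Both PKL bins were among the bins of higher count in the window, with 16 of 20 flanking bins below their mean wild-type level. Across the window rho of the log2 ratio was -0.31 against mean count and -0.33 against coding coverage. The parts of count level and coding coverage in this difference were not tested.

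PKR2 was on the other side of its flanks. Its log2 ratio was 0.053 above their median of 0.034 (SD 0.039 over 20 bins), and 18 of the 20 flanking bins were lower. Its wild-type level was low for the window, with 3 of 20 flanking bins below it. Across this window rho of the log2 ratio was -0.29 against mean count and -0.51 against coding coverage. The parts of count level and coding coverage were not tested here either. PKR1 was close to its flanks, 0.021 above a median of 0.037 (SD 0.073 over 19 bins), with 13 flanking bins lower. With the midpoint bin alone, PKR1 was 0.039 below its flanks (a local difference of -0.039), since the higher ratio lies in the bin with the smaller part of the gene.

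**Figure D3:**
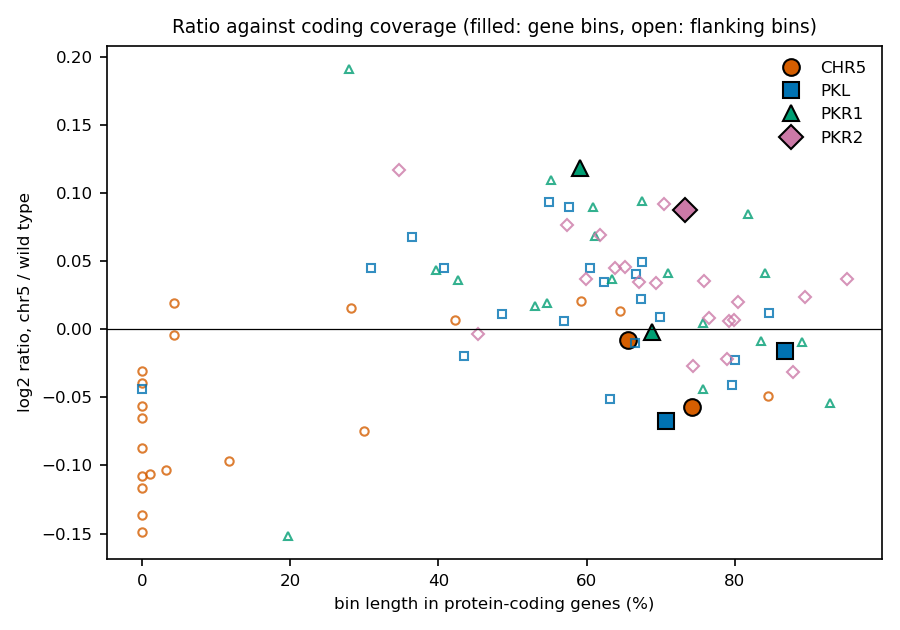
Log2 ratio of chr5 mutant to wild type (vertical axis) against the percent of each bin in protein-coding genes (horizontal axis), with the bins of each gene filled and their flanking bins open. The open circles of the CHR5 window crowd at the left, at low coverage and mostly negative ratios, while both CHR5 bins lie at 65.6% and 74.3%.

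The extreme flanking bins show how far ratios went near the 4 genes. In the CHR5 window the lowest bin (5470001 to 5480000, pseudogenes AT2G13230 and AT2G13200) held 21017 wild-type counts against 19536 in the mutant library, for a fold of 0.902 (0.885 to 0.920). It also held the most counts of that window. The highest (5640001 to 5650000), with the cap-binding protein gene ABH1 (AT2G13540) and AT2G13550, was at 1.015 (0.982 to 1.049). The PKL window ran from 0.965 (0.935 to 0.996) in the bin of AT2G25050 to 1.07 (1.03 to 1.11) in the bin of AT2G25220 and MYB100 (AT2G25230), a MYB family gene.

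The widest range was in the PKR1 window. Its highest bin, at 18140001 to 18150000, held 13476 wild-type counts against 15856 in the mutant library, with a fold of 1.14 (1.12 to 1.17). The gene with the largest part of it is the pseudogene AT5G44925, followed by ARAD2 (AT5G44930), a glycosyltransferase-like gene. The lowest, at 18190001 to 18200000, had 6187 and 5739 counts and a fold of 0.900 (0.868 to 0.933), with the pseudogenes AT5G45082 and AT5G45085. In the PKR2 window the highest bin (15410001 to 15420000), with the glutathione peroxidase gene GPX7 (AT4G31870) and AT4G31880, was at 1.08 (1.04 to 1.13). The lowest, with AT4G32050 and AT4G32030, was at 0.979 (0.949 to 1.01). Over the 4 windows, 1 flanking bin was past 1.1-fold higher and 2 were past it lower, of 79 analysed. Among all analysed bins 0.81% were past it higher and 2.65% lower.

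The 3 lists of related genes were treated in the same way, by the summed counts of the bins each gene overlaps. Every bin of their genes passed the count filter. Over all 27226 such protein-coding genes the median log2 ratio was 0.020 (SD 0.046), and 0.433% were past 1.1-fold higher and 0.602% past it lower. No gene of the 3 lists passed 1.1-fold in either direction. The 4 CHD genes had a median of 0.0031.

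The other SNF2-family ATPase genes, which encode remodellers of other classes and proteins of RNA-directed DNA methylation, had a median of 0.0017 over 20 genes, and 6 of them were above the median of all genes. The lowest were DDM1 (AT5G66750), a remodeller needed for DNA methylation of heterochromatin, at a fold of 0.976 (0.956 to 0.997) and the ISWI gene CHR11 (AT3G06400) at 0.978 (0.953 to 1.004). The highest were CLSY3 (AT1G05490) at 1.06 (1.03 to 1.08) and DRD1 (AT2G16390) at 1.04 (1.02 to 1.07), both of which act in RNA-directed DNA methylation. Over all of its bins PKL, at 0.971, was lower than the lowest of these 20, and PKR2, at 1.06, was higher than the highest, by less than the width of the counting intervals in both cases.

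The 8 genes of Polycomb repressive complex 2 had a median of 0.0080, with 3 above the median of all genes. The histone-binding subunit gene MSI1 (AT5G58230) was lowest at 0.967 (0.943 to 0.992), followed by the histone methyltransferase gene SWN (AT4G02020) at 0.984 (0.965 to 1.003). The seed-expressed methyltransferase gene MEA (AT1G02580) was highest at 1.06 (1.02 to 1.09), and VRN2 (AT4G16845), a subunit gene known from vernalization, was at 1.025 (0.997 to 1.054).

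The 5 genes reported as affected by CHR5 or PKL had a median of 0.026, with 3 above the median of all genes. SNC1 (AT4G16890) was lowest, with 8931 wild-type counts against 8520 in the mutant library and a fold of 0.926 (0.899 to 0.954). LEC1 (AT1G21970), a regulator of embryo development, was at 0.995 (0.960 to 1.03). The other regulators of the embryo program were ABI3 (AT3G24650) at 1.02 (0.996 to 1.04), LEC2 (AT1G28300) at 1.04 (0.996 to 1.08) and FUS3 (AT3G26790) at 1.047 (1.011 to 1.085). SNC1 was the only one of the 5 below all 4 CHD genes in fold, and it lies in a cluster of close copies whose counts are uncertain.

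**Figure D4:**
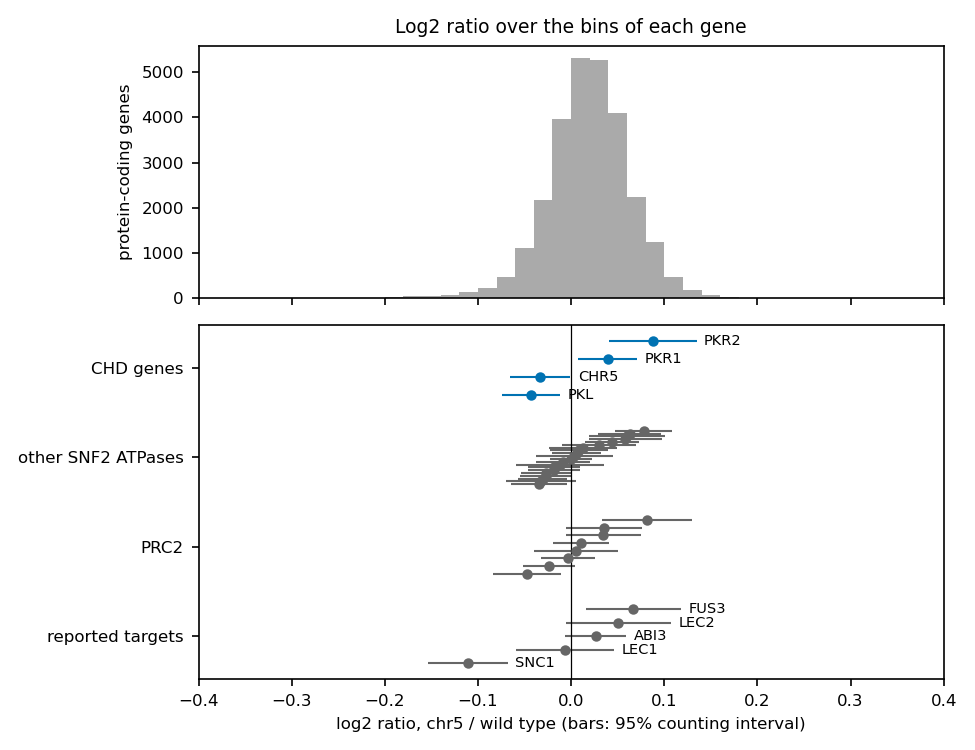
The upper panel is a histogram of the log2 ratio of chr5 mutant to wild type over the analysed protein-coding genes between -0.4 and 0.4. All analysed genes ranged from -0.404 to 0.833, and those past the axis are not shown. The lower panel gives each gene of the 4 lists as a point with its 95% counting interval on the same axis. The CHD genes run from PKL, with 7.08% of all analysed genes below it, to PKR2, with 95.02% below it. SNC1 is the lowest point of the lower panel.

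By the distance between both log2 levels, the genes nearest to CHR5 were AT5G63180 and AT5G63190, which share their bins, at 78.2 CPM in the wild type against 76.4 in the mutant. Nearest to PKL were AT3G02480 and AT3G02490, at 85.7 and 83.0 CPM. Nearest to PKR1 were AT2G40910 at 80.3 and 82.4 CPM and BBX8 (AT5G48250) at 80.2 and 82.4. Nearest to PKR2 were AT4G02830 and AT4G02840, at 69.8 and 74.4 CPM. This likeness rests on 2 libraries.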

How the data were processed

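Nucleosome-protected DNA of leaves was measured in 1 wild-type and 1 chr5 mutant library. The authors deposited whole-number counts in consecutive 10-kb bins, not normalized. BWA 0.7.5a and bedtools are named in the submitters' processing notes. Their roles, the genome build, and the handling of duplicates and multiply matching reads were not given in the sources used here. Reads at repeats, near-identical genes and bins of 0 may reflect that handling.

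Gene positions came from RefSeq (assembly TAIR10.1), used for names and for which bins a gene overlaps; printed coordinates are those of the bins, counted from 1. In 10 of 10 half-chromosomes, log2 wild-type counts correlated best with coding coverage at no shift, each less its running median over 21 bins. There r was 0.22 to 0.72, against at most 0.14 at shifts of up to 4 bins. The lowest r, 0.22, was that of the first half-chromosome of chromosome 2, which holds CHR5. All list members were matched by locus.

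Counts were scaled to nuclear totals. Log2 ratios used a pseudocount of 1. Bins under 0.25 times the median were left out (181 of 11916); all 7 gene bins passed. Folds have exact conditional binomial intervals, levels exact Poisson intervals and differences between genes normal ones on the log2 scale, all at 95% and for counting error only; reads that are PCR copies are not independent. Centromere positions were approximate (3.6 Mb on chromosome 2). A local difference is the mean log2 ratio of the gene bins less the median of the analysed bins within 10 bins either side. Named genes were the 4 members, genes in their bins, the extreme flanking bins, the 2 highest and 2 lowest genes of each list, all reported targets and the nearest genes by level. The members and lists were chosen with earlier results of these data known. Protein sequences were not analysed here. Scripts were tested on simulated counts. Tools were matplotlib 3.10.9, scipy 1.17.1, pandas 2.3.3 and numpy 2.4.6 under Python 3.11.15. Alternatives were other scalings, filters, pseudocounts, thresholds, bin assignments and flank widths.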

Additional observations from a re-analysis of the deposited data

How the results depend on the processing

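Of 164 values under the alternatives, 139 moved by less than their counting error (for counts of bins, by less than 1.5 times) and 25 by more. Part of the 139 could not move at all. Library scaling cancels out of levels relative to flanks and out of local differences. Filters left the folds unchanged because every gene bin passed them. PKR2 has 1 bin, so the midpoint and weighted settings used the same counts for it. The folds ranged from 0.968 to 0.995 for CHR5, 0.961 to 0.989 for PKL, 0.999 to 1.028 for PKR1 and 1.052 to 1.063 for PKR2. Past a change of 5%, 2 gene bins were higher, against 0 past 1.1-fold. With the bin of the midpoint only, the fold of PKR1 was 0.999 and its local difference -0.039, and levels relative to the flanks (wild type, then mutant) were 0.770 and 0.807 for CHR5, 1.202 and 1.166 for PKL, and 1.41 and 1.38 for PKR1. With bins weighted by their share of the gene, PKR1 was at 1.15 and 1.15. With 5 bins either side PKL was at 1.48 and 1.43 and mutant PKR1 at 1.02, and with 20 PKL was at 1.12 and 1.09 and PKR1 at 1.09 and 1.09. With bins between 0.5 and 4 times the median, mutant PKR1 was at 1.04. With flanks of at least 50% coding coverage, chosen after seeing the data, CHR5 was at 1.04 and 1.01 with a local difference of -0.046, PKL at 1.12 and 1.08, and mutant PKR1 at 1.02. The cause of these moves was not tested beyond the choice of bins each setting makes. The other scalings, no filter and a pseudocount of 10 moved no value beyond its counting error, though for part of the values they could not. No paired analysis was possible because each genotype has 1 library. The median bin held 7978 wild-type counts, so counting error is small beside the spread between bins.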

Other observations

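The bin at 18120001 to 18130000 on chromosome 5, in the PKR1 window, held 0 counts in both libraries, which allows up to 3 counts, or 0.030 per 1000000 nuclear counts for the wild type and 0.029 for the mutant. The gene table places the pseudogenes AT5G44875, AT5G44890 and AT5G44880 there and no protein-coding gene. It is 1 of 66 nuclear bins at 0 in both libraries and the only one in the 4 windows.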
